A study of Arabidopsis thaliana with 18 samples.

Results

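Loss of the Mediator subunit MED5 in plants that carry the glucosinolate mutation ref2-1 was followed in 6 RNA-seq libraries of Arabidopsis thaliana, 3 of ref2-1 med5a-1 med5b-1 and 3 of ref2-1, taken by the genotype in their labels from the 18 libraries of the series. All 33602 gene IDs of the count table were considered, and 19897 had enough reads to be tested. The series grew 6 genotypes in the ecotype Columbia-0, namely wild type, the single mutants ref2-1 and ref5-1, the double mutant med5a-1 med5b-1 and the triple mutants that join it with either glucosinolate allele, with 3 libraries each. Whole rosettes were taken at 18 days in a long day, and each library is a pool of 5 rosettes from different pots, so plant-to-plant variation is averaged within a library. Both groups compared here carry ref2-1, a loss-of-function allele of CYP83A1, and they differ in med5a-1 and med5b-1, the alleles of MED5A (AT3G23590) and MED5B (AT2G48110). The allele pair is written med5 from here on. Wild type and med5, also at 18 days, serve as the same contrast without ref2-1. The labels name 1 allele of each gene, so effects of the alleles and of other differences between the lines cannot be told apart.

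Mediator is a large complex that passes signals from transcription factors to RNA polymerase II, and MED5 belongs to its tail. In Arabidopsis, dominant alleles of MED5B lower the accumulation of phenylpropanoids, the phenylalanine-derived compounds that include lignin precursors, sinapate esters and flavonoids, and MED5 is known to be needed for low phenylpropanoid accumulation in several mutants. CYP83A1 oxidises aldoximes on the way to aliphatic glucosinolates, the methionine-derived defence compounds of this family, and its loss is known to reduce phenylpropanoid products as well. The comparison asks which transcript changes of ref2-1 plants depend on MED5.

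The 12 libraries of the 4 genotypes used held 21389804 to 28355294 gene counts. MED5B was at 26.3 to 30.7 CPM (reads of the gene relative to TMM-scaled library size) in ref2-1 and at 7.61 to 8.47 CPM in ref2-1 med5, while CYP83A1, already low in ref2-1, did not differ by the test (log2 fold change 0.17 ± 0.11, adjusted p = 0.362 by edgeR). The photosynthesis list, which marks green leaf tissue, summed to 71589 to 73847 CPM in ref2-1 and 75368 to 80042 CPM in ref2-1 med5. Of 4 root markers 1 had enough reads to test, and neither of the 2 seed markers did. Tests are edgeR quasi-likelihood tests with Benjamini-Hochberg adjustment over all tested genes, fold changes are given on the log2 scale ± SE, levels as mean ± SD over 3 libraries, and genes with an adjusted p below 0.05 are termed called.

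MED5 loss changed 1773 of the 19897 genes tested in ref2-1 rosettes (8.91%), 925 higher (4.65%) and 848 lower (4.26%). Most changes were small. At least a 2-fold change was fitted for 174 of the higher and 171 of the lower genes, and at least a 4-fold change for 28 and 49. The number of calls depended on single libraries: it was 937 without ref2-1 replicate 1, 1076 without ref2-1 replicate 3, 930 without ref2-1 med5 replicate 1 and 762 without ref2-1 med5 replicate 2. None of the 1773 called genes changed its direction under any of the 13 alternatives tried. These refits reuse all or most of the same libraries, so a kept direction is a weak test. Of the 1773, 747 were still called without ref2-1 med5 replicate 2, 894 without ref2-1 replicate 1 and 1740 with RLE scaling.

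Of the genes known to restrain phenylpropanoid synthesis, 2 of 5 Kelch F-box genes and 2 of 4 MYB repressor genes fell, and 1 of the MYB genes rose. A pair of small chloroplast chaperone genes fell too. Over all tested genes 4.26% fell and 4.65% rose. KFB39 (AT2G44130) encodes a Kelch-repeat F-box protein, which sends the entry enzyme of the pathway, phenylalanine ammonia-lyase, to degradation. Its level was 63.6, 68.9 and 63.8 CPM in the ref2-1 libraries and 3.90, 3.29 and 2.34 CPM in the ref2-1 med5 libraries. Every triple mutant library lay far below every ref2-1 library, a 20.6-fold fall (log2 fold change −4.36 ± 0.15, adjusted p = 2.16e-12), and the mean of 3.17 ± 0.787 CPM was also under the wild-type mean of 11.9 ± 0.514 CPM. KFB50 (AT3G59940), with the same target, had 110, 123 and 114 CPM in ref2-1 and 54.5, 42.9 and 41.9 CPM in ref2-1 med5. These groups did not overlap either (log2 fold change −1.32 ± 0.15, adjusted p = 4.33e-05), and the triple mutant level was near the wild-type mean of 59.6 ± 6.34 CPM, with a difference from it that missed the threshold (adjusted p = 0.093). The other 3 members of the Kelch F-box list were not called: KFB20 was at 0.22 ± 0.19, KFB01 at −0.16 ± 0.32 and KFB-CHS, which targets chalcone synthase, at 0.15 ± 0.24 on the log2 scale.

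DJC66 (AT3G13310) and DJC23 (AT4G36040) encode small J-proteins of the chloroplast, co-chaperones of heat-shock proteins. DJC66 had 113, 118 and 108 CPM in ref2-1 and 3.85, 5.02 and 3.74 CPM in ref2-1 med5. The fall was 26.8-fold (log2 fold change −4.74 ± 0.13, adjusted p = 3.04e-14), and the triple mutant again ended below the wild-type mean of 13.6 ± 1.67 CPM. DJC23 went from 148, 169 and 158 CPM to 58.8, 47.4 and 49.7 CPM (log2 fold change −1.61 ± 0.15, adjusted p = 8e-06), close to the 41.4 ± 3.63 CPM of wild type. The related DJC22 (AT1G80920) moved the other way, at 0.49 ± 0.12 (adjusted p = 0.014), a call that was lost without ref2-1 replicate 1 (adjusted p = 0.0775) or ref2-1 med5 replicate 1 (adjusted p = 0.0848). DJC24 was not called (0.35 ± 0.18).

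Of the MYB4 clade, transcription factors known to repress phenylpropanoid genes, MYB4 (AT4G38620) and MYB7 (AT2G16720) fell, MYB3 (AT1G22640) rose and MYB32 was not called (0.16 ± 0.17). MYB4 was at 44.6, 43.9 and 39.6 CPM in ref2-1 and 16.1, 15 and 14.6 CPM in ref2-1 med5, tight groups that stood well apart (log2 fold change −1.49 ± 0.096, adjusted p = 2.21e-08). MYB7, a low transcript, went from 5.44, 5.22 and 8.47 CPM to 2.15, 3.12 and 1.41 CPM (log2 fold change −1.50 ± 0.28, adjusted p = 0.00335). MYB3 rose from 10.5, 12.8 and 9.11 CPM to 25.1, 22.7 and 20.7 CPM (log2 fold change 1.07 ± 0.17, adjusted p = 0.000774).

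**Figure D1:**
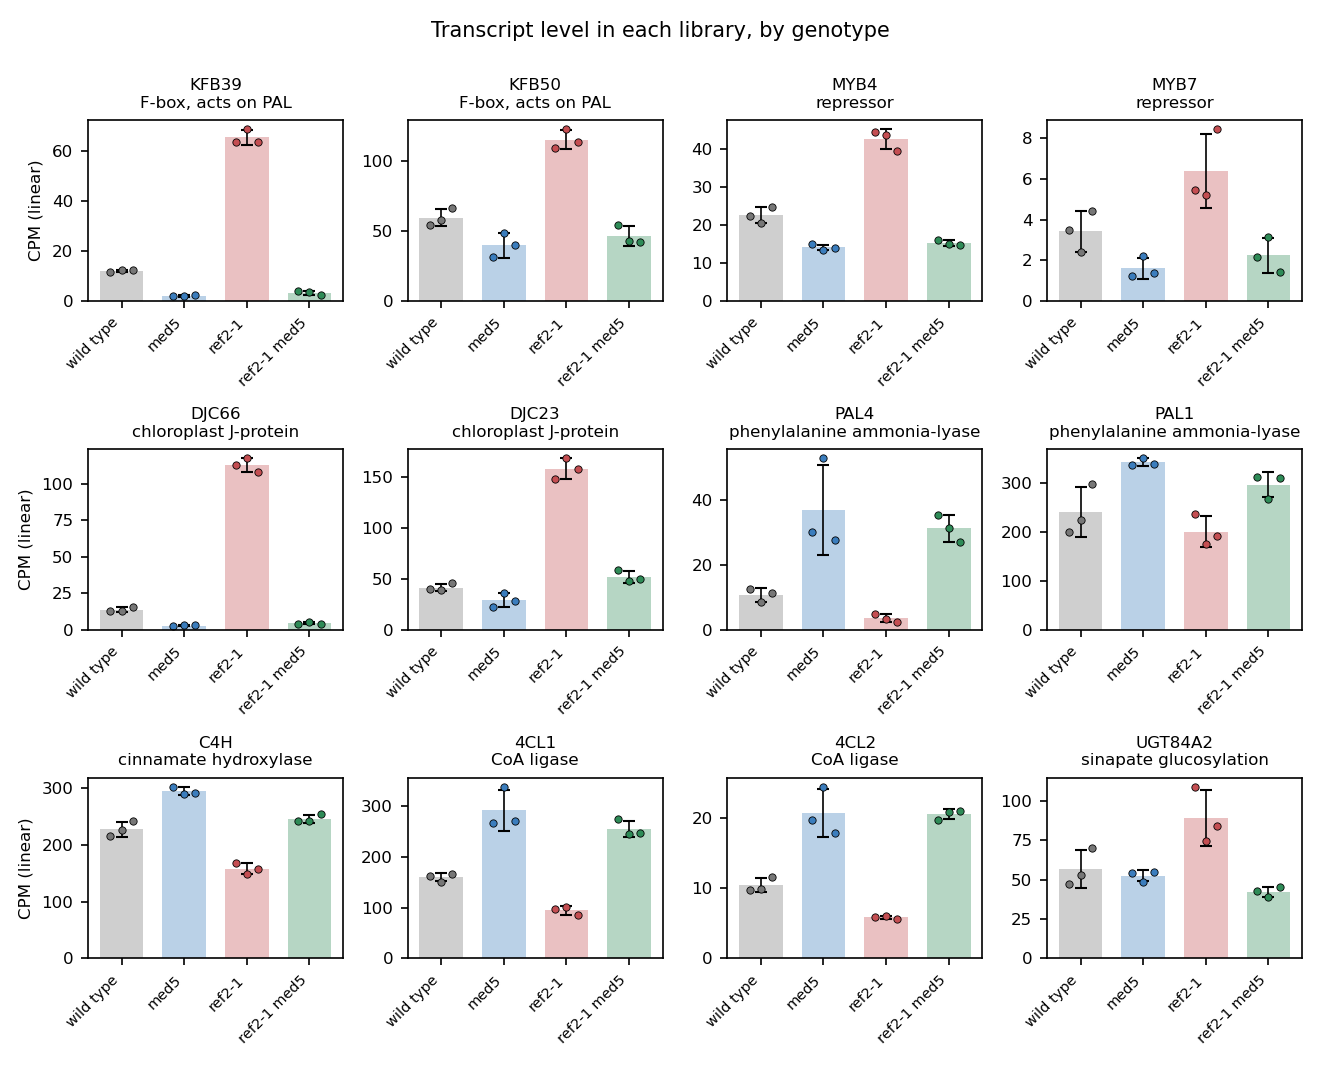
Level of 12 transcripts in each library (points, CPM on a linear axis) for wild type, med5, ref2-1 and ref2-1 med5, with bars for the mean and error bars for the SD over 3 libraries. KFB39, KFB50, MYB4, DJC66 and DJC23 were highest in all 3 ref2-1 libraries, while PAL4, 4CL1 and 4CL2 were lowest there.

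The 250 bases before the annotated gene start are shown for DJC66, KFB50 and MYB4, which fell together, and for PAL4, the phenylpropanoid gene that rose most, because Mediator acts at promoters. They are from the TAIR10.1 genome and annotation, 5′ to 3′ on the strand of the gene: chr3:4311630-4311879 (minus strand) for DJC66, chr3:22142606-22142855 (plus) for KFB50, chr4:18053110-18053359 (plus) for MYB4 and chr3:3203738-3203987 (plus) for PAL4. No other annotated gene overlaps these windows. Capitals mark matches, on either strand, to the 4 motifs searched: the W-box core TTGAC, the TGA motif TGACG (which overlaps the W-box core where TTGACG occurs), the G-box CACGTG and the evening element AAATATCT.
DJC66: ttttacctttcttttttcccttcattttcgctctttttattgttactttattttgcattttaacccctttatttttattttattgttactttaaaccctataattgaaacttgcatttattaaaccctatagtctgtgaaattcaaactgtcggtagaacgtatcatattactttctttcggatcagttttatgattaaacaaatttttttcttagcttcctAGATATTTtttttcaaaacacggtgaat
KFB50: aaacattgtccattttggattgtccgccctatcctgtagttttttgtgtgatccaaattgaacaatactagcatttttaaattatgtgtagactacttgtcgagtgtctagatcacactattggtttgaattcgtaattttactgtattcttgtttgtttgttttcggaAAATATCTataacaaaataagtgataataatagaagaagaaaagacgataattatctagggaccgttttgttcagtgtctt
MYB4: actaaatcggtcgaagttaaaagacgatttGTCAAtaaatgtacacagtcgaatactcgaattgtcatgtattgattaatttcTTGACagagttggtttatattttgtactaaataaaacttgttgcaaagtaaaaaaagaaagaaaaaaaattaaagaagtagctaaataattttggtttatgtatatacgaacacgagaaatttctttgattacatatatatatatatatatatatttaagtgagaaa
PAL4: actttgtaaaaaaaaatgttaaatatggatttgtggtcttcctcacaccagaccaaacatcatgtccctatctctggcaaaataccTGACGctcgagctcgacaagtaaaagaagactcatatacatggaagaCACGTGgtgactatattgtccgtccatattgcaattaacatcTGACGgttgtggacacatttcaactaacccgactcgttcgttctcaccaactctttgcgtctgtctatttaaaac
DJC66 and KFB50 each hold 1 evening element, a motif bound by the morning clock factors CCA1 and LHY, which begins 28 and 81 bases before the start. MYB4 holds 2 W-box cores, and PAL4 holds 2 TGA motifs and 1 G-box. KFB39, DJC23 and MYB7 fell too, but their windows are not shown. The genes shown were picked with results known, so a motif that they share may reflect that choice. The evening element was present in 4.96% of the 19512 tested genes with such a window, in 9.43% of the called lower genes (79 of 838) and in 4.59% of the called higher genes (42 of 916). The other motifs differed less between the sets: the W-box core was in 44.8% of all windows, 45.6% of the lower and 44.4% of the higher set, the TGA motif in 19.3%, 18.5% and 19.5%, and the G-box in 7.39%, 7.76% and 6%. These shares are descriptions without a test, and a match is not evidence of binding.

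Of the 23 genes on the phenylpropanoid enzyme list, all of them tested, 12 rose, 2 fell and 9 were not called, with a median log2 fold change of 0.54 against −5e-04 over all tested genes. The shares were 52.2% higher and 8.7% lower, against 4.65% and 4.26% of all tested genes. PAL4 (AT3G10340), a phenylalanine ammonia-lyase isoform, was at 4.81, 3.33 and 2.36 CPM in ref2-1 and 35.6, 31.5 and 27.1 CPM in ref2-1 med5. That is an 8.91-fold rise with no overlap (log2 fold change 3.16 ± 0.29, adjusted p = 1.82e-05), from below to above the wild-type mean of 10.8 ± 2.13 CPM. The abundant isoforms changed less, PAL1 by 0.56 ± 0.13 to 297 ± 25.6 CPM and PAL2 by 0.48 ± 0.089 to 206 ± 16.7 CPM, and PAL3 was not called (0.24 ± 0.11). The KFB proteins act on these enzymes, not on their transcripts.

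Further along the pathway, C4H (AT2G30490), cinnamate hydroxylase, rose from 168, 149 and 158 CPM to 243, 241 and 254 CPM (log2 fold change 0.64 ± 0.078, adjusted p = 6e-05). The 4-coumarate CoA ligases 4CL1 (AT1G51680) and 4CL2 (AT3G21240) rose most after PAL4. 4CL1 had 97.9, 101 and 85.0 CPM in ref2-1 and 273, 244 and 247 CPM in ref2-1 med5 (log2 fold change 1.43 ± 0.096, adjusted p = 3.77e-08), and 4CL2 had 5.91, 5.99 and 5.62 CPM against 19.7, 20.8 and 21.1 CPM (log2 fold change 1.81 ± 0.11, adjusted p = 1.44e-08). In both the triple mutant exceeded wild type (adjusted p = 0.000108 and 9.37e-06). The isoforms 4CL3, which serves flavonoids, and 4CL5 were not called (−0.27 ± 0.19 and 0.21 ± 0.23). Of the monolignol steps that follow, CCoAOMT1 (AT4G34050) rose from 265, 217 and 241 CPM to 396, 415 and 420 CPM (0.77 ± 0.073, adjusted p = 5.26e-06), and the shikimate ester enzymes HCT, C3H1 and CSE by 0.68 ± 0.077, 0.64 ± 0.085 and 0.65 ± 0.083. CAD4, which makes the alcohols, rose by 0.60 ± 0.088 and the methyltransferase OMT1 by 0.31 ± 0.072, the latter a call lost without ref2-1 replicate 1 or ref2-1 med5 replicate 3 (adjusted p = 0.0596 and 0.0505). The steps toward sinapate were flat or fell: FAH1, ferulate hydroxylase, was at −0.02 ± 0.092 and SNG1, which makes sinapoylmalate, at 0.17 ± 0.098. ALDH2C4, which makes ferulate and sinapate from their aldehydes, fell by 0.40 on the log2 scale (SE 0.084, adjusted p = 0.00583), and UGT84A2 (AT3G21560), which links glucose to sinapate, went from 109, 74.4 and 84.4 CPM to 42.9, 39.1 and 45.4 CPM (−1.07 ± 0.13, adjusted p = 0.000102).

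Of 13 genes on the xylem and secondary wall list 2 were called higher (15.4%, against 4.65% of all tested genes). These were COBL4 (0.89 ± 0.17, adjusted p = 0.00312) and the vessel protease XCP2 (0.63 ± 0.18, adjusted p = 0.0453). The median was 0.44, and 9 did not overlap upward between the groups, against 15.4% of all tested genes (30.8% in either direction). The XCP2 call was lost when ref2-1 replicate 2 or 3 or any ref2-1 med5 library was left out (adjusted p from 0.0513 to 0.156). The summed level of the list was 96.2 to 128 CPM in ref2-1 and 144 to 190 CPM in ref2-1 med5, beside 160 to 206 CPM in wild type and 206 to 223 CPM in med5. In whole rosettes fewer cells of a type and less RNA per cell cannot be told apart, and the part of vascular tissue in the phenylpropanoid values was not tested.

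**Figure D2:**
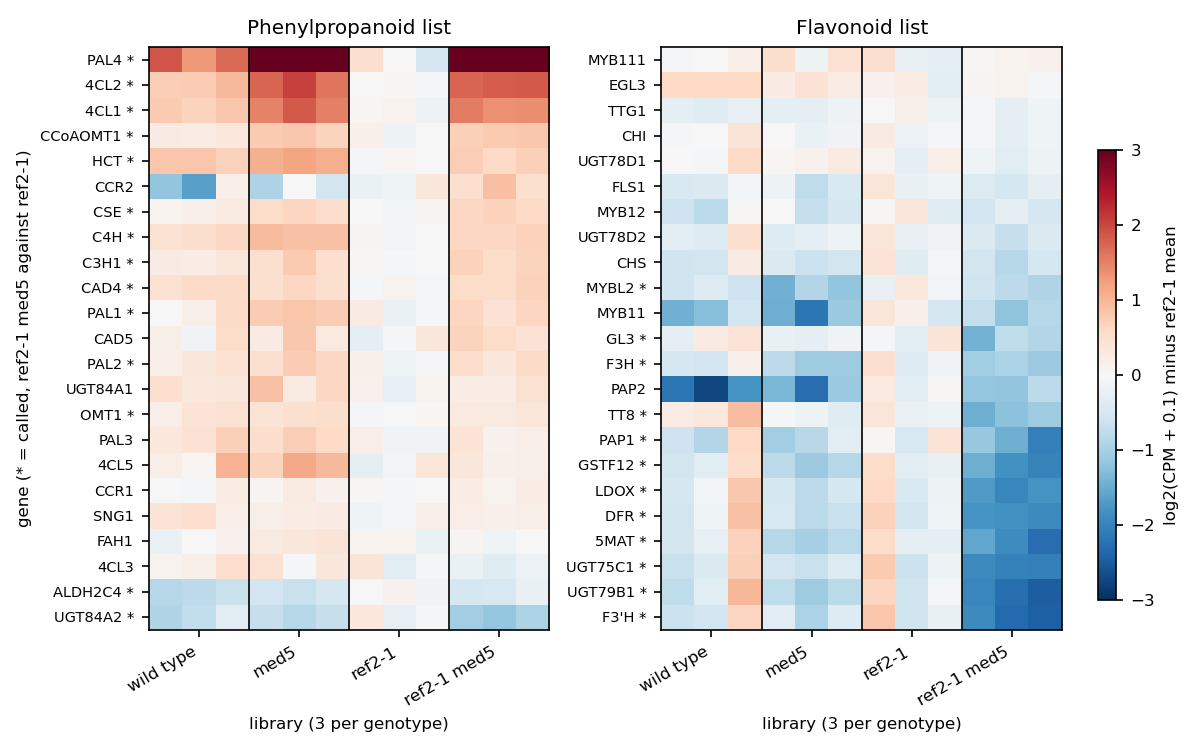
Level of each phenylpropanoid (left) and flavonoid (right) gene in 12 libraries, as log2(CPM + 0.1) minus the mean of the ref2-1 libraries (colour, limited at 3), with genes ordered by their fold change and an asterisk for genes called in ref2-1 med5 against ref2-1. The 12 phenylpropanoid genes called higher are red in all 3 ref2-1 med5 libraries, and the 12 called flavonoid genes are blue in them, with a spread among wild-type and ref2-1 libraries.

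In the flavonoid branch the called genes all fell. Of 23 flavonoid and anthocyanin genes 12 were called lower (52.2%, against 4.26% of all tested genes) and none higher. The median was −1.07, and 17 did not overlap downward (15.5% of all tested genes). DFR, dihydroflavonol reductase, went from 130, 54.2 and 72.8 CPM to 23.3, 22.8 and 21.3 CPM (−1.93 ± 0.37, adjusted p = 0.00653), and LDOX from 120, 57.5 and 70.7 CPM to 24.3, 20.2 and 22.8 CPM (−1.88 ± 0.35, adjusted p = 0.00558). F3'H (AT5G07990), which hydroxylates the B ring, fell 5.15-fold (−2.37 ± 0.46, adjusted p = 0.00782, and 0.0563 in a fit to the 6 compared libraries alone). The acyltransferase 5MAT, the glutathione transferase GSTF12 and the glycosyltransferases UGT79B1 and UGT75C1 were lower by 1.81 to 2.34 on the log2 scale. The regulators TT8 (−1.32 ± 0.23), PAP1 (−1.57 ± 0.41) and GL3 (−1.07 ± 0.27), which form the complex that activates these enzymes, fell as well, and so did MYBL2, its repressor (−0.78 ± 0.18). The PAP1 call was lost without ref2-1 replicate 1 or 3 or any ref2-1 med5 library (adjusted p from 0.0537 to 0.101), that of GL3 without ref2-1 replicate 3 or ref2-1 med5 replicate 1 (0.0928 and 0.0981), and those of MYBL2 and UGT75C1 without ref2-1 med5 replicate 2 (0.0551 and 0.0544). Of other enzymes shared with flavonols, F3H fell by 1.08 (a call lost without ref2-1 replicate 1 or any ref2-1 med5 library, adjusted p from 0.0512 to 0.0617), CHS was at −0.67 ± 0.21 (adjusted p = 0.067), FLS1 at −0.43 ± 0.19 and CHI at −0.16 ± 0.16.

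The flavonoid groups differed in spread as well as in level. The summed level of the list was 1636, 1005 and 1171 CPM in ref2-1, 766, 661 and 743 CPM in ref2-1 med5, 897, 957 and 1596 CPM in wild type and 920, 817 and 898 CPM in med5. The ref2-1 med5 libraries were the lowest of the 4 genotypes, and 12 of the list's genes were also called lower in ref2-1 med5 against wild type, where 9.06% of all tested genes were. Jasmonate genes varied among the same libraries. The jasmonate list summed to 2679, 1820 and 6533 CPM in ref2-1, 1581, 1683 and 1141 CPM in ref2-1 med5 and 1417, 1266 and 5803 CPM in wild type, and its part in the flavonoid values was not tested. All 17 jasmonate genes had a negative fold change (median −1.50), yet none was called by edgeR, 1 without ref2-1 replicate 2, and 4 by DESeq2. LOX2, a jasmonate synthesis enzyme, was at −1.21 ± 0.59 and the marker VSP2 at −1.65 ± 0.84.

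Of 18 tested auxin genes 8 rose (44.4%, against 4.65% of all tested genes), 1 fell (5.56%, against 4.26%) and 9 were not called (median 0.32). Without ref2-1 replicate 1, 5 were called higher. GH3.5 (AT4G27260), which joins auxin to amino acids, was at 9.50, 12.3 and 10.9 CPM in ref2-1 and 32.7, 30.3 and 26.1 CPM in ref2-1 med5 (1.44 ± 0.16, adjusted p = 2.94e-05). GH3.6 (AT5G54510) rose from 49.8, 62.0 and 48.9 CPM to 101, 98.3 and 96.0 CPM (0.87 ± 0.12, adjusted p = 0.000198). For both, the difference of ref2-1 from wild type missed the threshold (adjusted p = 0.534 and 0.807), and GH3.5 and GH3.6 in ref2-1 med5 were above wild type (adjusted p = 3.58e-05 and 0.000152). In contrast, the auxin response genes IAA19 (0.96 ± 0.15, adjusted p = 0.000515) and SAUR63 (0.83 ± 0.17, adjusted p = 0.00563) were lower in ref2-1 than in wild type (adjusted p = 0.00381 and 0.000318) and were in ref2-1 med5 at 8.29 ± 0.531 and 9.11 ± 1.32 CPM, beside 6.61 ± 0.646 and 10.4 ± 0.706 CPM in wild type. The shade-response gene IAA29 rose from 1.12 ± 0.333 to 2.15 ± 0.0322 CPM, a call lost without ref2-1 replicate 1 (adjusted p = 0.0585), and stayed under its 6.62 ± 0.622 CPM in wild type. The auxin transporter PIN3 rose by 0.39 ± 0.074, and IAA5, a repressor of auxin response at 1.72 ± 0.196 CPM in ref2-1, was the member called lower (−0.65 ± 0.18, a call lost without ref2-1 replicate 1 or 3 or any ref2-1 med5 library, adjusted p from 0.0519 to 0.111).

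Expansins loosen cell walls during growth. All 9 listed alpha-expansin genes had a positive fold change (median 0.44). Of them 6 were called higher (66.7%, against 4.65% of all tested genes) and 3 were not. Without ref2-1 replicate 3, ref2-1 med5 replicate 2 or ref2-1 med5 replicate 3, 3 were called. EXPA8 (AT2G40610) was at 54.5, 65.3 and 50.9 CPM in ref2-1 and 111, 122 and 123 CPM in ref2-1 med5 (1.06 ± 0.17, adjusted p = 0.00171), against 111 ± 8.65 CPM in wild type. EXPA15 and EXPA3 rose by 0.87 ± 0.18 and 0.86 ± 0.19, and EXPA1, the most abundant, by 0.44 ± 0.11. The EXPA3 call was lost without ref2-1 med5 replicate 2 (adjusted p = 0.0506), and the EXPA1 call without ref2-1 replicate 1, ref2-1 replicate 3 or ref2-1 med5 replicate 3 (adjusted p from 0.0617 to 0.0889). The summed expansin level was 826 to 946 CPM in ref2-1 and 1226 to 1342 CPM in ref2-1 med5.

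Of 11 tested flowering genes 4 were called higher (36.4%, against 4.65% of all tested genes), none lower and 7 not at all (median 0.65). The summed level of the list was 178 to 190 CPM in ref2-1 and 189 to 208 CPM in ref2-1 med5, ranges that overlap. FT (AT1G65480), the mobile flowering signal made in leaf veins, was at 2.25, 3.63 and 2.67 CPM in ref2-1 and 6.50, 6.45 and 5.38 CPM in ref2-1 med5 (1.09 ± 0.17, adjusted p = 0.000774). The floral meristem gene AP1 went from 0.788, 0.666 and 0.725 CPM to 2.69, 1.77 and 2.47 CPM (1.66 ± 0.34, adjusted p = 0.00563). SEP3 (1.90 ± 0.36) and FUL (0.87 ± 0.20) rose with it, while SOC1 (0.07 ± 0.091) was not called. Flower organ markers were present in the rosettes too: AP3 (1.90 ± 0.41, adjusted p = 0.00793) and PI (1.37 ± 0.34, adjusted p = 0.0184) were called and AG was not (0.53 ± 0.37), so 2 of 3 were higher, against 4.65% of all tested genes. Their sum was 1.93 to 2.36 CPM in ref2-1, 4.17 to 6.12 CPM in ref2-1 med5, 2.24 to 2.89 CPM in wild type and 3.31 to 6.62 CPM in med5, and none was at 0 in any of the 12 libraries. The PI call was lost without ref2-1 replicate 1 or 3 or ref2-1 med5 replicate 3 (adjusted p from 0.0652 to 0.0753). The part of young flower buds in the values of AP1, SEP3 and FUL was not tested.

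**Figure D3:**
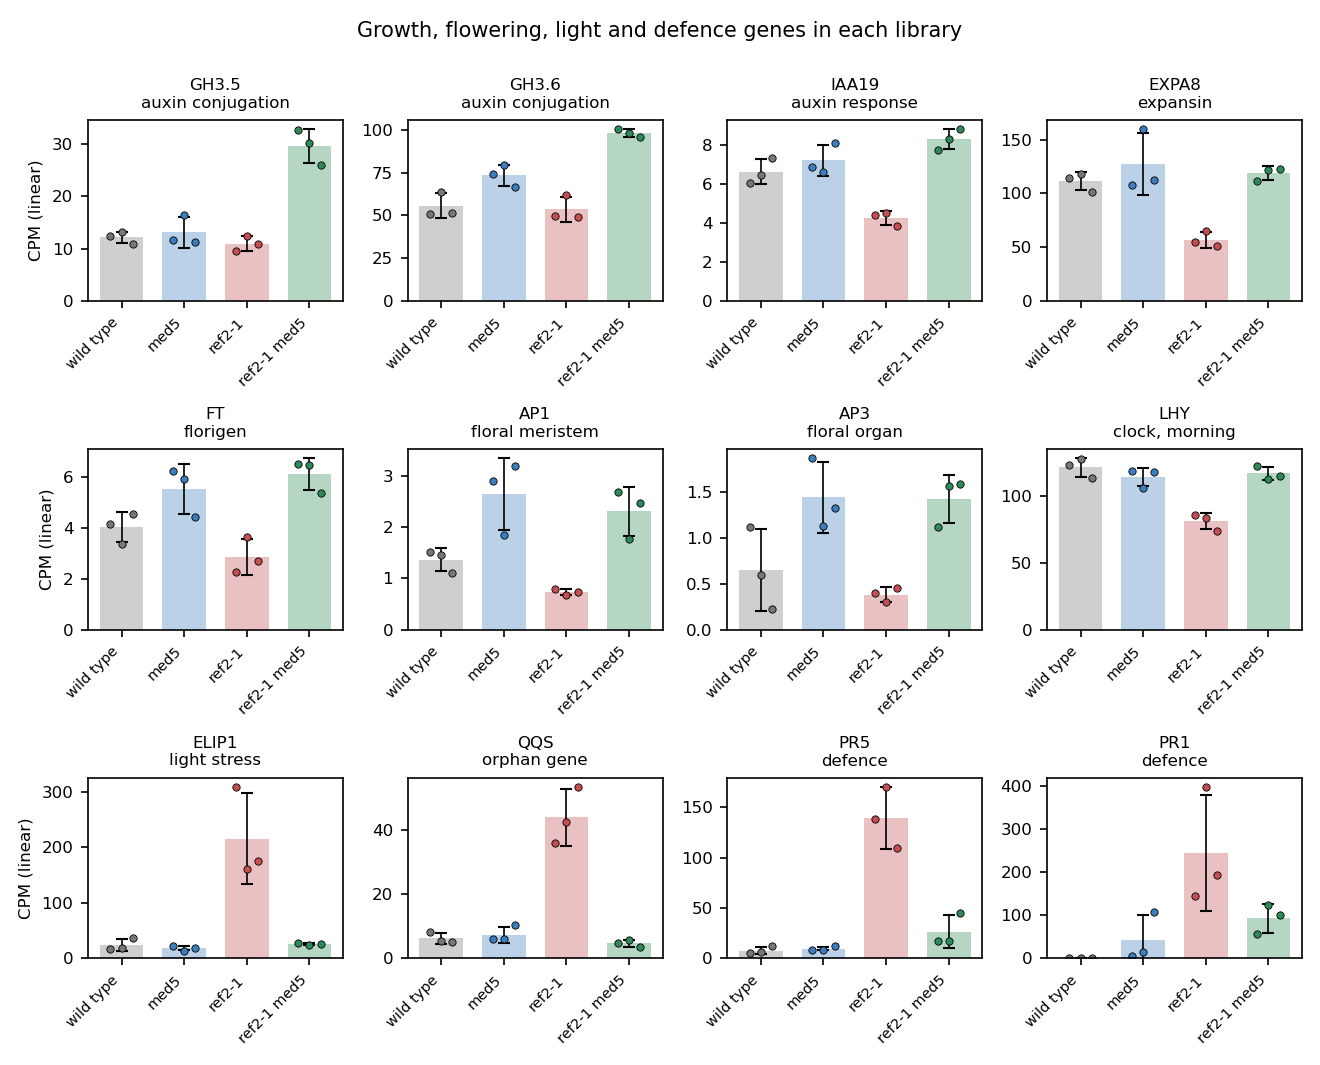
Level of 12 growth, flowering, light and defence transcripts in each library (points, CPM on a linear axis), with bars for the mean and error bars for the SD over 3 libraries. GH3.5 and GH3.6 were highest in ref2-1 med5, ELIP1, QQS and PR5 were highest in ref2-1, and PR1 varied several-fold among libraries of med5 and ref2-1.

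Among 11 tested clock genes 1 was called higher (9.09%, against 4.65% of all tested genes) and 3 lower (27.3%, against 4.26%). LHY (AT1G01060), a morning-phased repressor, was at 85.7, 83.5 and 73.9 CPM in ref2-1 and 122, 113 and 115 CPM in ref2-1 med5 (0.52 ± 0.085, adjusted p = 0.000953), and wild type had 121 ± 7.18 CPM. The day-phased PRR9 (−0.44 ± 0.097, adjusted p = 0.00891), GI (−0.53 ± 0.13, adjusted p = 0.016) and PRR7 (−0.31 ± 0.093, adjusted p = 0.0453) fell. The GI call was lost without ref2-1 replicate 1 or ref2-1 med5 replicate 2 (adjusted p = 0.0713 and 0.0798), and the PRR7 call when any 1 of the 6 libraries was left out (0.0582 to 0.177). CCA1, the partner of LHY, was at 0.09 ± 0.064. All libraries were taken at 1 time of day, so a shift in phase and a change in level cannot be told apart.

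Beyond these groups, light-stress genes and a few single genes gave some of the largest falls. ELIP1 (AT3G22840), an early light-inducible protein that binds free chlorophyll, was at 310, 161 and 177 CPM in ref2-1 and 27.5, 23.5 and 25.6 CPM in ref2-1 med5 (−3.08 ± 0.36, adjusted p = 0.000262). Its paralog ELIP2 went from 160, 91.1 and 93.4 CPM to 18.0, 13 and 18.1 CPM (−2.81 ± 0.40, adjusted p = 0.00117). In both the triple mutant was near wild type, with 24.5 ± 10.8 and 24.1 ± 9.89 CPM. QQS (AT3G30720), an orphan gene tied to starch and protein content, was at 35.9, 42.4 and 53.4 CPM in ref2-1 and 4.79, 5.71 and 3.61 CPM in ref2-1 med5 (−3.22 ± 0.26, adjusted p = 3.69e-06), against 6.30 ± 1.70 CPM in wild type. The beta-amylase BAM5, AT2G38240 and the monodehydroascorbate reductase gene MDHAR (AT3G09940) fell 54.9-fold, 22.5-fold and 10.2-fold, but their ref2-1 values were scattered, with 15.4, 3.29 and 56.5 CPM for BAM5. Each of these calls was lost without ref2-1 replicate 3 (adjusted p = 0.0527 for BAM5, 0.16 for AT2G38240 and 0.0922 for MDHAR) and without each ref2-1 med5 replicate in turn (0.0604 to 0.168), the AT2G38240 call also without ref2-1 replicate 1 (0.0585) and the MDHAR call without ref2-1 replicate 2 (0.0549).

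When calls were limited to genes that averaged 5 CPM or more in one of the groups and whose libraries did not overlap, several genes outside the lists were among those with the highest fold changes. The pectin methylesterase gene ATPMEPCRD (AT2G43050) went from 0.749, 0.566 and 0.317 CPM to 6.41, 4.65 and 4.58 CPM (3.23 ± 0.40, adjusted p = 0.000134). The asparaginase ASPGB1 (AT3G16150) rose from 1.46, 1.73 and 1.81 CPM to 15.2, 11.8 and 8.68 CPM (2.83 ± 0.29, adjusted p = 1.53e-05), and the glutamine synthetase GLN1;4 (AT5G16570) from 2.60, 3.89 and 2.63 CPM to 11.2, 9.70 and 13.2 CPM (1.89 ± 0.19, adjusted p = 1.2e-05). That these groups did not overlap follows from the limit by which the genes were taken. MYB43, a secondary wall regulator, rose by 1.93 ± 0.22 to 6.95 ± 1.46 CPM, MLP34 by 1.91 ± 0.33 to 5.08 ± 1.29 CPM and AT5G05960 by 1.83 ± 0.19 to 15 ± 1.08 CPM. The stress-induced cytochrome gene CYP81D11 (2.24 ± 0.61, adjusted p = 0.0386) and the glucosyltransferase gene UGT74E2 (1.99 ± 0.48, adjusted p = 0.0202) were called with less stability. The CYP81D11 call was lost without any 1 of the ref2-1 libraries or ref2-1 med5 replicate 1 or 2 (0.0621 to 0.136), and the UGT74E2 call without ref2-1 replicate 2 or 3 or ref2-1 med5 replicate 1 or 2 (0.0592 to 0.079).

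Called members of the defence, glucosinolate and sulfur lists are to be read against the 8.91% called over all tested genes. Of 20 salicylate genes 1 was called, PR5 (AT1G75040), a thaumatin-like protein, which fell from 138, 170 and 110 CPM to 17.3, 16.8 and 45.4 CPM (−2.40 ± 0.40, adjusted p = 0.00312, and 0.0618 in a fit to the 6 compared libraries alone). PR1 was at 143, 397 and 194 CPM in ref2-1 and 56.2, 123 and 100 CPM in ref2-1 med5 (−1.39 ± 0.83, adjusted p = 0.33), and PR2 at −1.19 ± 0.58. The salicylate median was −0.41, and 17 of its 20 genes were called higher in ref2-1 med5 than in wild type, where 11.7% of all tested genes were. None of 10 defence WRKY genes (median −0.27), 14 receptor kinase genes (median −0.26) or 9 endoplasmic reticulum folding genes (median −0.22) was called, although every member of these lists had a negative fold change. Of 27 aliphatic glucosinolate genes 3 were called (11.1%), 2 higher, CYP79F2 (0.57 ± 0.12, adjusted p = 0.00753) and the regulator MYB29 (0.29 ± 0.072, adjusted p = 0.0177), and 1 lower, FMOGS-OX5 (−0.27 ± 0.081, adjusted p = 0.0467). CYP79F1 is a near-identical copy of CYP79F2, so reads of these genes could have been split between them. Both other calls were lost with several libraries left out, MYB29 without ref2-1 replicate 2 or 3 or ref2-1 med5 replicate 1 (0.0549 to 0.0843), and FMOGS-OX5 without any ref2-1 library or ref2-1 med5 replicate 1 or 2 (0.0783 to 0.168). Of 17 indole glucosinolate genes 3 were called lower (17.6%, against 4.26% of all tested genes). CYP81F3 (AT4G37400), which modifies the indole ring, fell from 9.58, 6.36 and 9.02 CPM to 2.33, 2.51 and 3.13 CPM (−1.64 ± 0.19, adjusted p = 4.51e-05). The calls of CYP81F1 (−0.57 ± 0.16, adjusted p = 0.036) and CYP83B1 (−0.64 ± 0.19, adjusted p = 0.0497) were lost without ref2-1 replicate 1 or 3 or ref2-1 med5 replicate 2 or 3, and that of CYP83B1 also without ref2-1 med5 replicate 1 (0.0803 to 0.186). Of 21 sulfate genes 3 were called (14.3%): SERAT2;1 (0.46 ± 0.094) and SULTR2;1 (0.42 ± 0.085) rose, and LSU2 fell (−0.67 ± 0.20, adjusted p = 0.0454), a call lost without ref2-1 replicate 1 or 3 or any ref2-1 med5 library (0.053 to 0.195).

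Of 18 cold and abscisic acid genes 3 were called higher (16.7%, against 4.65% of all tested genes), and the median was 0.11. GolS2, a galactinol synthase, was at 0.434, 1.33 and 0.408 CPM in ref2-1 and 4.7, 4.89 and 4.67 CPM in ref2-1 med5, with no overlap (2.64 ± 0.48, adjusted p = 0.004). The calls of the phosphatase gene HAB1 (0.30 ± 0.08, adjusted p = 0.023) and of RD29B (1.49 ± 0.42, adjusted p = 0.0336) were lost without ref2-1 replicate 1 or 2 or ref2-1 med5 replicate 1 or 2 (adjusted p from 0.0539 to 0.177), and that of HAB1 also without ref2-1 replicate 3. The iron store gene FER3 was the single called member of 11 iron genes (−0.34 ± 0.093, adjusted p = 0.0307), a call lost without ref2-1 replicate 1 or any ref2-1 med5 library (0.0649 to 0.158), and the antenna protein gene LHCA1 that of 17 photosynthesis genes (0.27 ± 0.074, adjusted p = 0.0306), lost without any 1 of the 6 libraries (0.0502 to 0.127). The FER3 and LHCA1 calls make up 9.09% and 5.88% of their lists, near the 8.91% called over all tested genes. No member was called among 10 rapid stress genes (median −0.27), 8 type-A cytokinin response genes (median −0.05), 8 tryptophan and camalexin genes (median −0.34) or 7 stomatal markers (median 0.09). These lists are small, and the absence of calls is to be read against the same 8.91%.

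**Figure D4:**
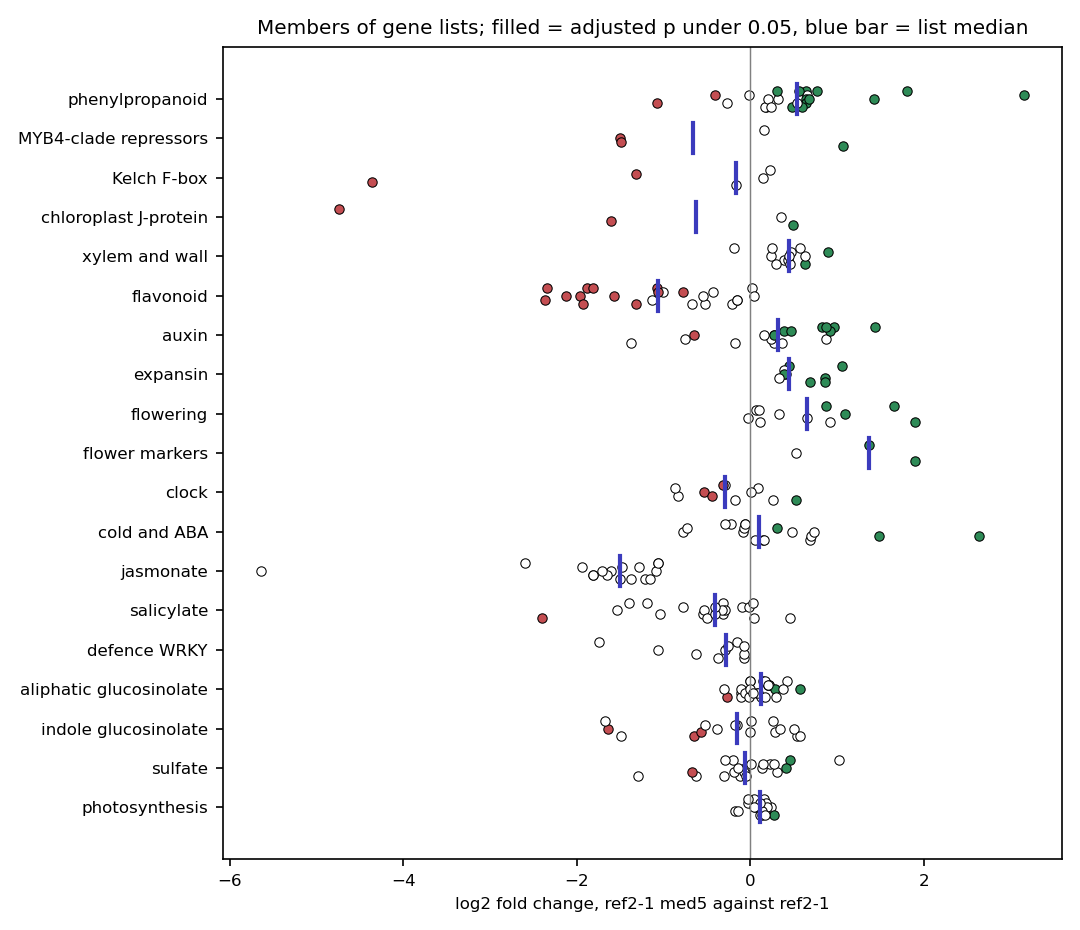
Log2 fold change of ref2-1 med5 against ref2-1 for the tested members of 19 gene lists (points, filled where the adjusted p was under 0.05), with the list median as a blue bar. Phenylpropanoid, expansin and flowering members lie mostly to the right of 0, and flavonoid and jasmonate members to the left, with jasmonate points unfilled.

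The same MED5 loss had fewer called effects without ref2-1. In med5 against wild type 155 genes were called (0.779%), 67 higher (0.337%) and 88 lower (0.442%). That number was 52 and 78 without wild type replicate 1 and 2, and 76 and 66 without med5 replicate 1 and 3. This comparison shares no library with the one in ref2-1. Of the 155, 72 were called in both, 69 in the same direction (29 higher and 40 lower) and 3 in opposite directions. Over all tested genes 8.91% were called in ref2-1. The 69 make up 44.5% of the med5 calls and 3.89% of the calls in ref2-1, and their number was 33 and 40 when wild type replicate 1 or 2 was left out and 42 and 41 when med5 replicate 1 or 3 was. They include KFB39, DJC66, MYB4, PAL4, 4CL1, 4CL2, C4H, CCoAOMT1, CSE, PRN2 and GLN1;4. The targeted genes MED5A and MED5B, and PAC, which lies next to MED5B, are among them as well. PRN2 (AT2G43120), a pirin family gene known to affect lignin makeup, was at 13.2, 13.6 and 12.5 CPM in ref2-1 and 2.24, 3.33 and 2.16 CPM in ref2-1 med5, with nearly equal changes in both backgrounds (−2.34 ± 0.14 and −2.41 ± 0.14). It was singled out after its values were seen. Over the 1773 genes called in ref2-1, the median absolute log2 fold change was 0.525 there and 0.148 in med5 against wild type, and 1268 (71.5%) had the same sign in both. Over the 155 genes called in med5 against wild type, the order was the reverse, 0.841 there and 0.482 in ref2-1, so each median is the higher one where the genes were chosen. Across all tested genes the fold changes of the comparisons correlated at r = 0.165, a description over genes, which are not independent replicates.

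Whether the effect of MED5 loss differs between backgrounds was tested as an interaction, which called 149 genes (0.749%), 91 higher (0.457%) and 58 lower (0.292%). Of these, 128 were also called in ref2-1 and 28 in med5 against wild type, beside 8.91% and 0.779% of all tested genes. The interaction is the difference of these comparisons and uses their libraries, so such overlaps are partly built in. The number of interaction calls depended on the libraries. Without wild type replicates 1, 2 and 3 in turn it was 40, 66 and 251, without those of med5 64, 475 and 44, without ref2-1 replicate 1 it was 77, and without ref2-1 med5 replicates 1 and 2 it was 71 and 38. DJC66 changed by −4.74 on the log2 scale in ref2-1 and by −2.34 in wild type (interaction −2.41, adjusted p = 1.87e-06), and KFB39 by −4.36 and −2.65 (interaction −1.71, adjusted p = 0.00245). Without MED5 both were low in either background, DJC66 at 2.69 ± 0.350 CPM in med5 and 4.20 ± 0.705 CPM in ref2-1 med5, and KFB39 at 1.91 ± 0.264 and 3.17 ± 0.787 CPM. The remaining difference was still called (adjusted p = 0.00864 for DJC66 and 0.0165 for KFB39). MYB4 (−0.81, adjusted p = 0.00982) also fell more in ref2-1, as did DJC23 (−1.09, adjusted p = 0.0252), while KFB50 (−0.73, adjusted p = 0.102) and PAL4 (1.37, adjusted p = 0.109) did not pass. Of the enzymes, 4CL2 (0.82, adjusted p = 0.0187) and CAD4 (0.60, adjusted p = 0.0336) had the higher fold change in ref2-1, and UGT84A2 (−0.97, adjusted p = 0.0222) and ALDH2C4 (−0.61, adjusted p = 0.0222) the lower one. ALDH2C4 was at −0.40 in ref2-1 and 0.20 in wild type. Apart from DJC66, KFB39 and MYB4, these interaction calls were lost with single libraries left out. That of 4CL2 was lost without med5 replicate 1 or 3 or ref2-1 med5 replicate 2 (adjusted p from 0.0514 to 0.0605), that of DJC23 without wild type replicate 1 or 2, med5 replicate 3, ref2-1 replicate 2 or 3 or ref2-1 med5 replicate 2 (0.0502 to 0.098), and that of CAD4 without any library but wild type replicate 3, med5 replicate 2 and ref2-1 replicate 2 (0.0549 to 0.104). Those of UGT84A2 and ALDH2C4 were lost without wild type replicate 1 or 2, med5 replicate 1 or 3 or ref2-1 med5 replicate 1 or 2 (0.0608 to 0.103). BBX22 (AT1G78600), a B-box regulator of light responses chosen after its values were seen, went from 53.7 ± 6.73 to 20.3 ± 0.0597 CPM in ref2-1 and from 18.1 ± 1.62 to 16.7 ± 0.968 CPM in wild type (interaction −1.29, adjusted p = 0.000269).

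**Figure D5:**
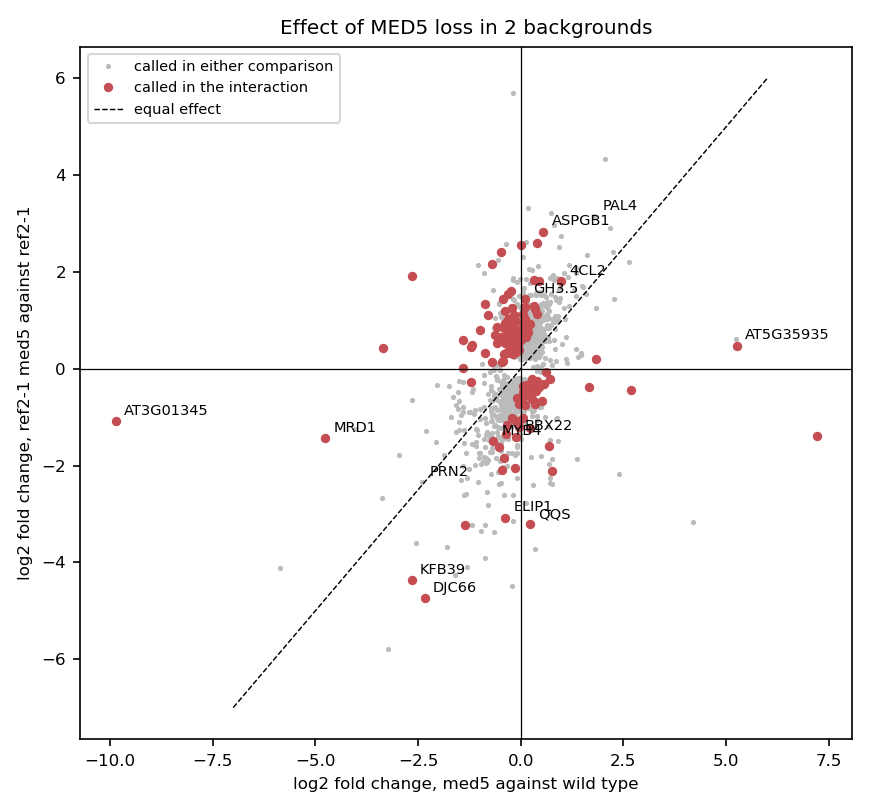
Log2 fold change of MED5 loss in ref2-1 (vertical) against that in wild type (horizontal) for genes called in either comparison (grey) and genes called in the interaction (red), with a dashed line of equal effect. KFB39 and DJC66 lie below the line, and PRN2 lies on it.

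Against wild type, ref2-1 med5 rosettes still differed in 4125 genes (20.7%), 2323 higher and 1802 lower, and in 2708 without wild type replicate 2 and 2742 without ref2-1 med5 replicate 1. This comparison shares the triple mutant libraries with that against ref2-1, so its values are only set beside it. KFB39, DJC66 and MYB4 were under wild type (−1.91 ± 0.16, −1.69 ± 0.13 and −0.56 ± 0.097), PAL4, 4CL1, 4CL2 and CCoAOMT1 above it (1.54, 0.68, 0.98 and 0.51), and C4H, PAL1, PAL2, HCT, CAD4 and OMT1 did not pass the threshold. Of the aliphatic glucosinolate list 21 of 27 genes and of the receptor kinase list 13 of 14 were higher than in wild type, and 12 of the 23 flavonoid genes were lower. Over all tested genes 11.7% were higher and 9.06% lower. For ref2-1 against wild type, 4915 of the 19897 tested genes were called, 2680 higher and 2235 lower. The dependence of that count on single libraries was not tested.

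The chromosomal neighbours of the med5 alleles were looked at after the results were seen. Of the 12 nearest, 6 at each gene, 10 were tested and 1 was called, beside 8.91% called over all tested genes. The other 9 were at −0.29 to 0.41 on the log2 scale. The called one, PAC (AT2G48120), a plastid development gene next to MED5B, was at 34.1, 32.8 and 36.3 CPM in ref2-1 and 18.5, 21.0 and 16.4 CPM in ref2-1 med5 (−0.88 ± 0.087, adjusted p = 8e-06), and it fell in med5 against wild type as well (−0.72 ± 0.086, adjusted p = 0.000194). MED5B itself fell by 1.78 (SE 0.089) and MED5A by 0.55 (SE 0.093, adjusted p = 0.00129). The other 15 Mediator genes on the list were not called, at −0.20 to 0.32 on the log2 scale. Thus 2 of 17 were called (11.8%, against 8.91% of all tested genes), and these were the targeted genes.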

How the data were processed

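Whole-rosette mRNA was sequenced, per the labels, with a strand-specific library kit. The authors deposited a table of whole-number counts per gene for 18 libraries, not normalized. Per the submitters' processing notes, Trimmomatic, TopHat2 2.1.0, HTSeq 0.6.1, edgeR and TAIR10 were used, and the strand setting of the counting is not given in the sources used here. Near-identical copies, overlapping genes and antisense pairs may therefore share reads. The 5 summary lines of the table were dropped.

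All 18 libraries were fitted by genotype with edgeR 4.0.16 in R 4.3.3 (filterByExpr, TMM, robust quasi-likelihood test, Benjamini-Hochberg adjustment, calls at 0.05), and the script was tested on simulated data. The SE of a fold change is its size divided by the square root of F. The series describes biological triplicates, and p-values measure the spread between these pooled libraries. Alternatives were other scalings and filters, a replicate block, DESeq2 1.42.0, the compared libraries alone, and each library left out.

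The members and lists were chosen with earlier results of these data known. Named genes were the targeted genes, the 10 highest and 10 lowest called fold changes with at least 5 CPM and no overlap, up to 4 called members of each list, all Kelch F-box, J-protein and MYB repressor genes with some phenylpropanoid and PR genes, and the 5 highest and 5 lowest interactions; some were left out for length, and other list members are named to describe their lists. Promoter windows were read from the TAIR10.1 genome and annotation, a choice made, like that of the genes shown, after the data were seen.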

Additional observations from a re-analysis of the deposited data

Results flagged for a closer look

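The genes below are those named here, or on the lists, for which the effect of MED5 loss differed between ref2-1 and wild type by the interaction test of edgeR. The value is the log2 fold change in ref2-1 minus that in wild type.

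Among genes with a negative fold change in ref2-1 that was lower than in wild type, the difference was −2.41 for DJC66, −1.71 for KFB39, −1.09 for DJC23, −0.81 for MYB4, −3.44 for QQS, −2.70 for ELIP1, −1.29 for BBX22, −0.97 for UGT84A2, −0.80 for DTX35, a transporter gene chosen after its values were seen, and −0.61 for ALDH2C4. Of these, QQS and ALDH2C4 had a positive fold change in wild type (0.23 and 0.20). Among genes with a positive fold change in ref2-1 that was higher than in wild type, it was 0.82 for 4CL2, 0.60 for CAD4, 1.33 for GH3.5, 1.05 for SAUR63, 0.56 for IAA16 (also chosen after its values were seen), 0.61 for LHY, 1.51 for AT5G05960, 2.28 for ASPGB1, 4.56 for MLP34 and 1.90 for SIS. Of these, MLP34, SIS, SAUR63 and LHY had a negative fold change in wild type (−2.65, −0.79, −0.22 and −0.09). It was −4.78 for AT5G35935, −3.13 for HO3, −2.04 for ESM1, −8.61 for PR1, 3.32 for MRD1 and 8.78 for AT3G01345. The fold changes in ref2-1 and in wild type were −1.39 and 7.21 for PR1, −0.43 and 2.70 for HO3 and −0.38 and 1.66 for ESM1. For these genes the larger change was thus the rise in med5 over wild type. Without med5 replicate 3 the PR1 difference was −6.50.

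AT3G01345 was at 335 CPM in wild type and at 0.350, 0.452 and 0.213 CPM in med5, ref2-1 and ref2-1 med5, so its difference rests on the wild-type level alone. AT5G35935 had 0.502 CPM in wild type and 19.4, 14.8 and 20.6 CPM in the others. MRD1 was at 28.7 CPM in wild type, 1.02 in med5, 32.6 in ref2-1 and 12 in ref2-1 med5.

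Several of these calls were lost with single libraries left out. The adjusted p then ran from 0.0611 to 0.147 for PR1, 0.052 to 0.13 for HO3, 0.0558 to 0.104 for ELIP1, 0.0869 to 0.125 for SIS, 0.0505 to 0.141 for SAUR63 and 0.0514 to 0.0781 for LHY.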

How the results depend on the processing

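None of the 1773 genes called in ref2-1 med5 against ref2-1 changed direction under the alternatives run, which reuse all or most of the same libraries. The balance of directions moved with scaling and tool: 1090 higher and 692 lower with upper-quartile scaling, and 1037 and 1075 under DESeq2. With single libraries left out the count ran from 762 to 1468, with 444 to 741 higher and 318 to 727 lower, the interaction from 38 to 475, med5 against wild type from 52 to 184, and ref2-1 med5 against wild type from 2708 to 3237. Under DESeq2 the interaction called 595 genes and med5 against wild type 494, and genes shared by both backgrounds numbered 159. The cause was not tested. Among uncalled genes, KFB01 ran from −0.58 to 0.069 and KFB-CHS from −0.038 to 0.42 with single libraries left out; the sign turned for KFB01 without ref2-1 replicate 2 (0.057) or ref2-1 med5 replicate 2, and for KFB-CHS without ref2-1 replicate 1.

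Between ref2-1 and ref2-1 med5 no pairing of the libraries by replicate number was seen. Their same-numbered deviations correlated at 0.007, −0.002 and 0.080, and other pairs reached 0.156. With 3 libraries per genotype, such correlations cannot decide whether the numbers pair the libraries. Other pairs of genotypes were not compared in this way. The jasmonate sum was highest in replicate 3 of wild type (5803 CPM), med5 (2672 CPM) and ref2-1 (6533 CPM), and lowest in replicate 3 of ref2-1 med5 (1141 CPM). Whether replicate numbers mark a batch shared across genotypes was not tested. With the replicate number as a block, 1851 genes were called in ref2-1 and 297 in the interaction. Low transcripts such as AP1, AP3 and PI rest on few reads, which limits their precision.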
